A study of Mus musculus with 12 samples.

Results

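Genes of the megakaryocyte and platelet lineage were followed in mouse liver with and without the nucleoside transporter ENT3, together with the hepatic hormone that drives the lineage. The set holds 9 genes (Itgb3, Itga2b, Clec1b, Pf4, Ppbp, Gp1ba, Gp9, Thpo and Treml1), chosen by name for their place in the lineage. The choice was made with earlier results of these data known, so their counts beside shares of all features are a description. Each gene was taken as the feature of highest mean signal that carries its symbol in the platform's probe-to-gene table. Of the 9, 7 had such a feature, 1 each, among 65956 transcript features and 30142 genes in all. Gp1ba, the von Willebrand factor-binding subunit of the platelet receptor GPIb, and Thpo, which encodes thrombopoietin, had no feature under their own symbol and were not analysed here. Livers came from 12 mice of strain C57BL6/J aged 12 weeks, 6 wild-type (WT, genotype ENT3 +/+) and 6 knockout (KO, genotype ENT3 -/-). In each genotype 3 titles carry the letter M and 3 the letter F, read here as sex, and mice are named by the number in their title. Each liver was hybridised to its own Affymetrix array. No Cre driver is named in the labels, and the deleted stretch of Slc29a3 is not described there.

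Platelets are shed by megakaryocytes, which mature mainly in bone marrow and spleen under thrombopoietin, a hormone made largely by hepatocytes. Once in the blood, platelets bind von Willebrand factor through the GPIb-IX-V complex (Gp1ba, Gp9), bind fibrinogen through integrin alpha IIb beta 3 (Itga2b, Itgb3), and release the chemokines Pf4 and Ppbp from their alpha granules. Platelets keep megakaryocyte RNA, and liver sinusoids hold blood, so whole-liver RNA can contain it. Some of these genes are not restricted to the lineage. Integrin beta 3 also pairs with alpha v on macrophages and endothelium, and Clec1b has been described on mouse liver macrophages as well as on platelets. GATA and ETS family factors drive many megakaryocyte genes.

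RefSeq promoter windows (build GRCm38.p6) were found for 8 of the 9 genes, 1 window each except for Thpo, with 2. They are shown for both called genes that have a window, Ppbp and Clec1b, for Pf4, which adjoins Ppbp on chromosome 5 with 0 other gene starts between them, and for Itga2b, the integrin subunit that defines the lineage. Each run is the 250 bases before the annotated start, 5′ to 3′ on the gene's strand, and capitals mark AGATAA or TGATAA, and GGAAG, on either strand, the letters of GATA and ETS motifs. The runs lie at chr5:90768268-90768517 (Ppbp, plus strand), chr6:129397047-129397296 (Clec1b, plus strand), chr5:90772185-90772434 (Pf4, plus strand) and chr11:102469884-102470133 (Itga2b, minus strand).
Ppbp promoter: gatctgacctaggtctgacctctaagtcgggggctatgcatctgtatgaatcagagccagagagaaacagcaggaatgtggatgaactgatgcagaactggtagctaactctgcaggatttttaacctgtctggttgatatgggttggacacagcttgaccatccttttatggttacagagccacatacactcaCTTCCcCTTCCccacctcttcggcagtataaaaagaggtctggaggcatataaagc
Clec1b promoter: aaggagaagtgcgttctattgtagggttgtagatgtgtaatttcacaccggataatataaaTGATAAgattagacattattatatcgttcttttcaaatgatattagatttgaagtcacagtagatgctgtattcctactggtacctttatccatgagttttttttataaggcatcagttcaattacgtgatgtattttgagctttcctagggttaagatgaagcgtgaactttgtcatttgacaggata
Pf4 promoter: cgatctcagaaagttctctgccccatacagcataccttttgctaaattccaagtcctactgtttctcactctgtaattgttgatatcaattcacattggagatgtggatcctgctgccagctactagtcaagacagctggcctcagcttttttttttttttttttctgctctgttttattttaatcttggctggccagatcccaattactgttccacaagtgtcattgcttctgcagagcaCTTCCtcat
Itga2b promoter: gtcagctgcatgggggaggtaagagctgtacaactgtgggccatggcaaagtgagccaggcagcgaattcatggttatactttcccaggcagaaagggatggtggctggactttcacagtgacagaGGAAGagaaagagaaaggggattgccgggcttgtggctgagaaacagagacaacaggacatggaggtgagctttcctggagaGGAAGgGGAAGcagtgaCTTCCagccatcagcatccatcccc
In these 250 bases AGATAA or TGATAA occurred in 2 of the 8 genes, once in Clec1b, first base 189 bases before the start, and at 2 places in Gp1ba. The same search found the motif in 16.6% of 32851 windows of all genes. GGAAG occurred in 7 of the 8 genes, among them 4 places in Itga2b and 2 in Ppbp, and in 64.1% of all windows. Clec1b was the gene of the 8 without it. Behind the start, in the 50 bases not printed, AGATAA began 37 bases in for Pf4 and 38 bases in for Clec1b. These are matches of letters and do not show that a factor binds.

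On the arrays, the deposited values are log2 signals, scaled by the authors in steps that the sources used here do not name, so every fold below is a fold on that scale. The 95th percentile of 5222 negative control features, which match no transcript, lay between 6.20 and 6.83 on the 12 arrays. Several measures of the whole array moved with genotype. The negative control median averaged 3.80 ± 0.03 in WT (SD, n = 6) and 3.93 ± 0.04 in KO livers (SD, n = 6), a difference of 0.14. In an exact two-sided test that permuted genotype within each letter its p was 0.005, the lowest value reachable with 400 arrangements. The poly-A spikes, bacterial RNAs added before labelling, averaged 5.44 ± 0.36 in KO (SD, n = 6) and 6.30 ± 0.32 in WT (SD, n = 6), with the same exact p of 0.005. Both had an adjusted p of 0.015 over the 6 measures compared. The positive control median was lower in KO by 0.39 (8.12 against 8.51, exact permutation, adjusted p = 0.02), and the transcript median was higher by 0.07 (exact permutation, adjusted p = 0.0225). Slc29a3, which encodes ENT3, read 4.82 to 5.29 in WT and 4.10 to 4.19 in KO (log2 difference -0.94 ± 0.07 SE, limma adjusted p = 0.000324), below the 95th percentile of the negative controls on all 12 arrays, so the size of that difference is not exact. Xist and the Y-linked genes separated the M and F arrays without exception. Of 9 hepatocyte markers measured, 6 were at the highest value of the scale, 19.93, on every array.

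Of the 7 measured genes, 3 rose in KO livers (Clec1b, Itgb3 and Ppbp), none fell and 4 did not pass the test (Gp9, Pf4, Itga2b and Treml1). The test was limma with a mean for each of 4 groups and Benjamini-Hochberg adjustment over all features, at an adjusted p under 0.05. By the same rule 5.28% of all features were called higher in KO, 4.47% lower and 9.75% in either direction. Counted with 1 feature per gene, 5.82% of genes were called higher and 8.33% lower. All 7 differences were positive, with a median of 0.43 on the log2 scale beside 0.05 over all features. In 4 of the 7 every KO liver lay above every WT liver on the deposited scale, which held for 1.97% of all features and 2.34% of genes. Ranked among the negative controls of its own array, KO M mouse 39 did not exceed every WT liver in any of these 4 genes. Only Clec1b stood above the 95th percentile of the negative controls on all 12 arrays. Itgb3 and Ppbp passed that percentile on 1 array each, and the other 4 genes on none, so the sizes of these differences are not exact. Of the negative controls themselves, 3.03% had a p-value as low as that of the last called feature. Most of these were higher in KO, 2.72% of all negative controls, beside the 5.28% of features called higher. In whole-liver RNA, more cells of a type and more RNA per cell cannot be told apart.

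**Figure D1:**
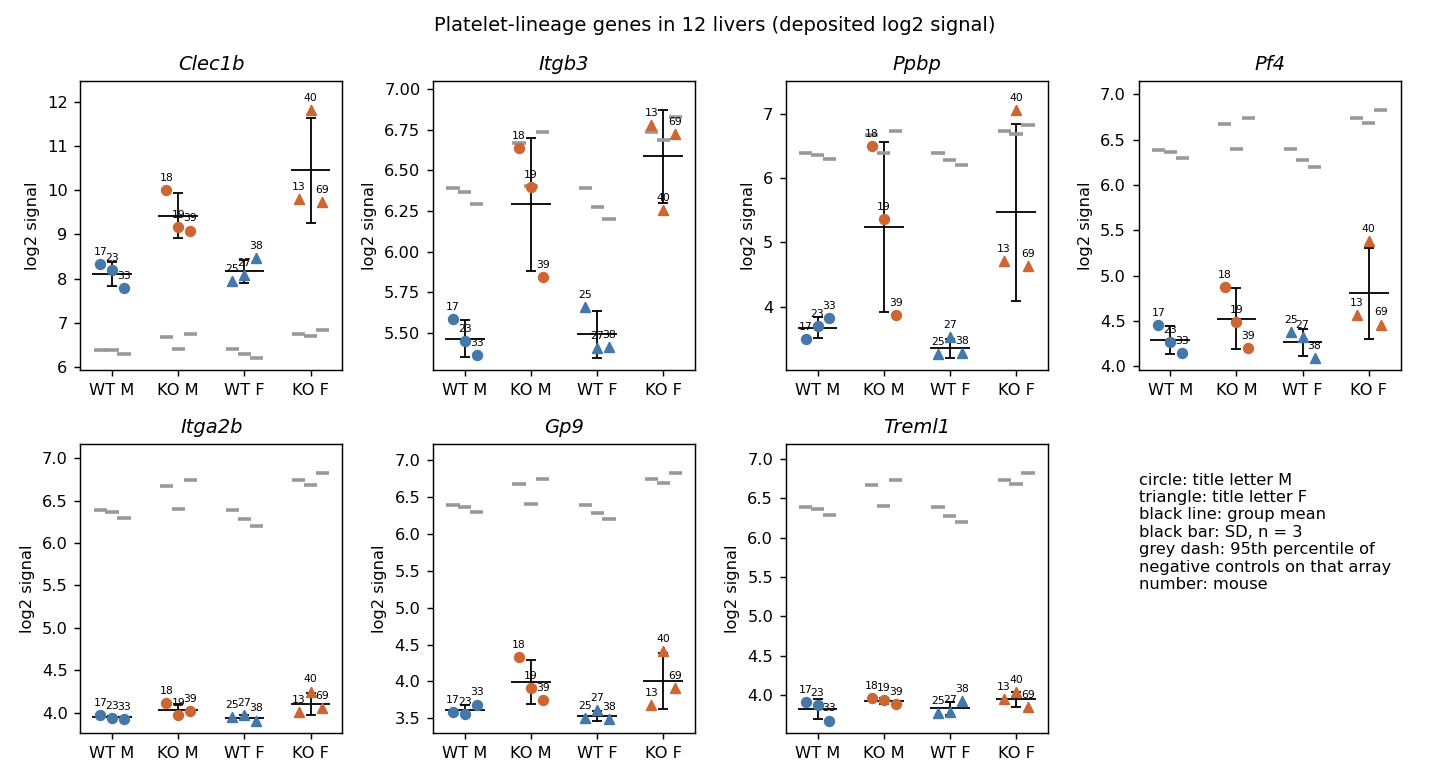
Deposited log2 signal of each measured gene (vertical axis) in WT and KO livers by title letter (horizontal axis), 1 point per mouse with its number, group mean and SD (n = 3), and the 95th percentile of the negative controls on each array as a grey dash. Clec1b lay above the dashes in all 12 livers, whereas Pf4, Itga2b, Gp9 and Treml1 lay below them in all 12.

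Clec1b, the C-type lectin receptor CLEC-2 through which podoplanin activates platelets, had the clearest signal. Its log2 signal was 8.32, 8.19 and 7.79 in WT M mice 17, 23 and 33 and 7.94, 8.08 and 8.46 in WT F mice 25, 27 and 38. In KO it was 10.02, 9.17 and 9.09 in M mice 18, 19 and 39 and 9.81, 11.83 and 9.73 in F mice 13, 40 and 69. The lowest KO liver stood 0.63 above the highest WT liver, and KO F mouse 40 was far above the other KO livers. The mean rose from 8.13 ± 0.24 (SD, n = 6) to 9.94 ± 0.995 (SD, n = 6), a log2 difference of 1.81 ± 0.35 SE, or 3.51-fold (limma adjusted p = 0.0104). Without KO F mouse 40 the difference was 1.47 ± 0.19 (limma adjusted p = 0.00271), and Clec1b kept its call in all 12 fits that left out 1 mouse. Against the negative controls of the same array, it stood at the 97.6th to 98.3rd percentile in WT and the 98.2nd to 99.0th in KO. By that measure KO M mouse 39, at the 98.2nd, was inside the WT range.

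Itgb3 encodes the beta 3 subunit shared by the platelet fibrinogen receptor and the alpha v integrins. WT M mice 17, 23 and 33 read 5.59, 5.45 and 5.36 and WT F mice 25, 27 and 38 read 5.66, 5.41 and 5.41. KO M mice 18, 19 and 39 read 6.64, 6.40 and 5.84 and KO F mice 13, 40 and 69 read 6.78, 6.26 and 6.72. The groups did not overlap on this scale, and here mouse 40 was the lowest of the KO F livers. The mean rose by 0.96 ± 0.14 SE, or 1.95-fold (limma adjusted p = 0.00291), and the call held in all 12 fits without 1 mouse (0.87 to 1.07). Against the negative controls of the same array, Itgb3 stood at the 88.0th to 91.1st percentile in WT and the 89.6th to 95.1st in KO. By that measure KO M mouse 39, at the 89.6th, was inside the WT range.

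Ppbp encodes pro-platelet basic protein, the precursor of the neutrophil-attracting chemokine CXCL7. It read 3.49, 3.70 and 3.82 in WT M mice 17, 23 and 33 and 3.26, 3.52 and 3.27 in WT F mice 25, 27 and 38. KO M mice 18, 19 and 39 read 6.50, 5.36 and 3.87, and KO F mice 13, 40 and 69 read 4.71, 7.07 and 4.63. The KO livers ranged over 3.20 log2 units against 0.56 in WT, and the lowest of them, M mouse 39, stood 0.05 above the highest WT liver. The mean rose by 1.85 ± 0.50 SE, or 3.60-fold, from a WT level among the lower negative controls (24.7th to 48.9th percentile), and its adjusted p was close to the threshold (limma, 0.0443). The KO livers stood at the 47.1st to 96.1st percentile of their own arrays' controls, and M mouse 39, at the 47.1st, was inside the WT range by that measure. The call was lost without any 1 of the 6 WT mice or without KO M mouse 18 or 19 (limma adjusted p up to 0.0948) and held without KO M mouse 39 or any 1 KO F mouse.

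Pf4, platelet factor 4, is the neighbour and chemokine relative of Ppbp. It read 4.45, 4.26 and 4.15 in WT M mice 17, 23 and 33, 4.38, 4.32 and 4.09 in WT F mice 25, 27 and 38, 4.88, 4.49 and 4.21 in KO M mice 18, 19 and 39 and 4.57, 5.39 and 4.46 in KO F mice 13, 40 and 69. KO livers 18 and 40 were the highest again, but KO M mouse 39 lay inside the WT range, so the groups overlapped. The log2 difference was 0.39 ± 0.17 SE (limma adjusted p = 0.201), and its 95% confidence interval ran from 0.01 to 0.77.

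Gp9, the small subunit of the von Willebrand factor receptor, read 3.49 to 3.69 in WT (median 3.57) and 3.68 to 4.42 in KO (median 3.91). KO F mouse 13 was the 1 KO liver that did not exceed every WT liver. The difference was 0.43 ± 0.13 SE (limma adjusted p = 0.0738), and it passed when KO F mouse 13 was left out (0.51, limma adjusted p = 0.037) and in no other fit without 1 mouse.

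Itga2b, the alpha IIb chain that restricts the fibrinogen receptor to the lineage, read 3.91 to 3.97 in WT and 3.97 to 4.25 in KO. The groups did not overlap, but the gap was 0.002, and the difference was 0.125 ± 0.05 SE (limma adjusted p = 0.176). Treml1, a receptor stored in alpha granules, read 3.68 to 3.93 in WT and 3.85 to 4.04 in KO, with a difference of 0.11 ± 0.06 SE (limma adjusted p = 0.29). Both genes sat near the middle of the negative controls in every liver, at the 51.1st to 61.2nd percentile for Itga2b and the 42.9th to 56.4th for Treml1. When each array was shifted to an equal negative control median, a scaling chosen after seeing the data, Itga2b was at -0.01 and Treml1 at -0.03, so neither direction held. The same shift left Clec1b at 1.67, Itgb3 at 0.82 and Ppbp at 1.71, all still called (limma adjusted p = 0.00935, 0.00392 and 0.0424).

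When the mean poly-A spike signal, which itself differs between the genotypes, was added to the model, none of the 7 was called by limma. Clec1b was then at 2.29 ± 0.90 SE (limma adjusted p = 0.487), Itgb3 at 1.31 ± 0.35 (limma adjusted p = 0.288) and Ppbp at 3.22 ± 1.20 (limma adjusted p = 0.467), and 3 of all features were called.

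Within title letters the directions were the same. In M livers none of the 7 passed (limma; 3 had an unadjusted p under 0.05), where 0.579% of all features were called higher. The M differences were 1.33 ± 0.50 SE for Clec1b (limma adjusted p = 0.283), 0.83 ± 0.20 for Itgb3 (limma adjusted p = 0.0938) and 1.58 ± 0.71 for Ppbp (limma adjusted p = 0.388). In F livers 2 of the 7 rose, against 3.13% of all features: Clec1b by 2.30 ± 0.50 SE (limma adjusted p = 0.0258) and Itgb3 by 1.09 ± 0.20 (limma adjusted p = 0.0132), while Ppbp was at 2.12 ± 0.71 (limma adjusted p = 0.116). The F call of Clec1b was lost without any 1 WT F mouse (limma adjusted p = 0.0664 to 0.0717), and that of Itgb3 without WT F mouse 38 (limma adjusted p = 0.0557). Of all features 6.19% were called in F, 3.06% lower, and of genes 3.65% were called higher and 5.76% lower in F and 0.737% higher in M. The difference between F and M was positive in all 7 but not called in any (limma; 0 with an unadjusted p under 0.05), and its interval for Clec1b ran from -0.59 to 2.53. That test called 0.00152% of all features.

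**Figure D2:**
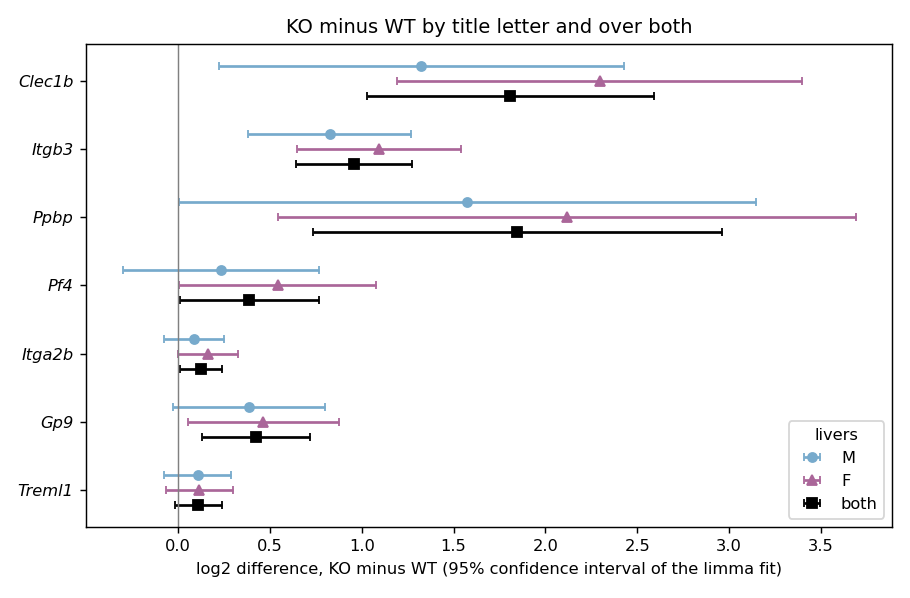
Log2 difference of KO minus WT (horizontal axis) for each measured gene in M livers, in F livers (3 against 3 each) and over both (6 against 6), with 95% confidence intervals of the limma fit. The intervals of Clec1b, Itgb3 and Ppbp lie above 0 in all 3 comparisons, and F and M intervals of every gene overlap.

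The KO livers differed among themselves, and the highest livers recurred while the full order did not. F mouse 40 was the highest KO liver for 6 of the 7 genes and M mouse 18 the next for the same 6. Among these 6, Itga2b and Treml1 sat near the middle of the negative controls. Itgb3 was the exception, with F mice 13 and 69 highest. M mouse 39 was the lowest for 4 genes, whereas M mouse 19 was lowest for Itga2b, F mouse 13 for Gp9 and F mouse 69 for Treml1. Set against the WT mean of its own letter, mouse 40 was higher by 3.67 for Clec1b, 3.72 for Ppbp, 1.12 for Pf4 and 0.88 for Gp9, and mouse 39 by 0.99, 0.20, -0.08 and 0.14. The SD was larger in KO than in WT for 6 of the 7 genes, from 3.01 times for Itgb3 to 5.45 times for Ppbp, and Treml1 was the exception.

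**Figure D3:**
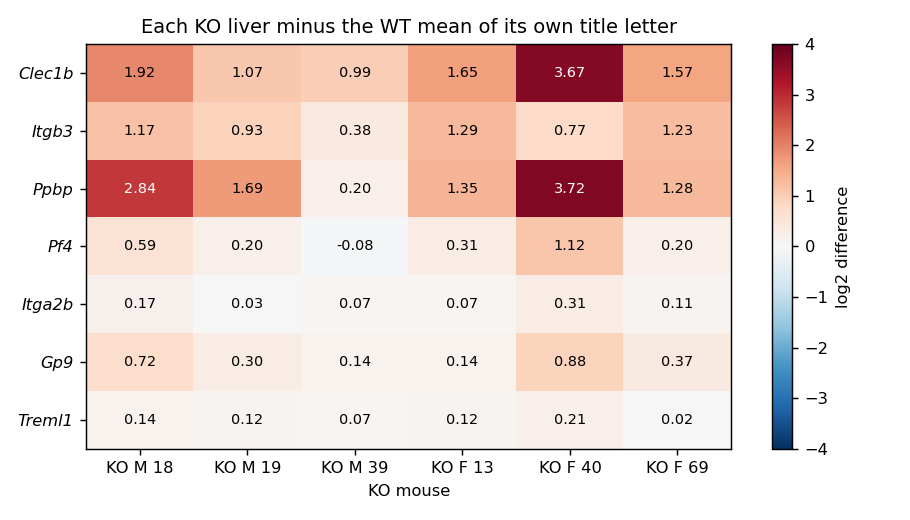
Log2 signal of each KO liver (columns) minus the WT mean of the same title letter, for the 7 measured genes (rows); colour and printed number give the difference. The columns of KO F 40 and KO M 18 hold the largest differences for Clec1b, Ppbp, Pf4, Itga2b, Gp9 and Treml1, and Itgb3 departs from that order.

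Other platelet genes were taken from a list of receptors, granule proteins and signalling proteins. Of 26 measured, 8 rose, 1 fell and 17 did not pass, with a median of 0.25. Over all features 5.28% were called higher and 4.47% lower. On all 12 arrays 22 of the 26 stayed below the 95th percentile of the negative controls. P2ry12, the ADP receptor blocked by clopidogrel, went from 3.81 ± 0.15 (SD, n = 6) to 4.26 ± 0.25 (SD, n = 6), a rise of 0.46 ± 0.08 SE (limma adjusted p = 0.0069). P2ry1, the other platelet ADP receptor, which other liver cells also express, fell by 0.82 ± 0.15 on the log2 scale (limma adjusted p = 0.0071). Vwf, made by megakaryocytes and endothelium, rose by 0.34 ± 0.07 (limma adjusted p = 0.0101), but passed under only 1 of the 3 other scalings. Fermt3, kindlin-3, which activates integrins in platelets and leukocytes, rose by 1.23 ± 0.24 (limma adjusted p = 0.0108). Another 5 rose and are named after their values were seen. Plek (1.54), Bin2 (1.62) and Cd9 (1.05) are also expressed by leukocytes or other liver cells. Plek was called in 5 and Cd9 in 4 of 12 fits without 1 mouse, and without KO F mouse 40 neither passed (limma adjusted p = 0.0611 and 0.0528). The thrombin receptor subunit F2rl2 (0.25) and the granule adhesion receptor Selp (0.245) passed under none of the 3 other scalings. Under the 3 other scalings 5 or 6 of the 26 rose, and without KO F mouse 40, 4 did.

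Of 12 megakaryocyte transcription factors measured, 1 rose and 1 fell, beside the 5.28% and 4.47% called over all features, and 9 of the 12 stayed within the negative control range on all arrays. The list had a median of 0.08, whose sign turned to -0.06 when arrays were shifted to equal negative control medians. Runx1, required for definitive blood stem cells and megakaryocyte maturation, rose by 0.50 ± 0.08 SE (limma adjusted p = 0.0037), from 3.85 to 4.35, within the negative control range. Zfpm1, the GATA1 cofactor FOG1, fell by 0.97 ± 0.15 (limma adjusted p = 0.00401), and all 6 KO livers (5.68 to 6.01) lay below all 6 WT livers (6.49 to 7.40). Nfe2 (0.13) and Fli1 (0.43) did not pass (limma adjusted p = 0.0817 and 0.0848), and under the negative control shift Nfe2 was at -0.002.

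On the hepatocyte side of thrombopoietin, 4 of 11 measured genes fell, none rose and 7 did not pass, where 4.47% of all features were called lower. Asgr2 and Asgr1 encode the asialoglycoprotein (Ashwell-Morell) receptor, by which hepatocytes take up aged platelets that have lost sialic acid, an uptake linked to Thpo production. Asgr2 fell by 1.95 ± 0.28 on the log2 scale (limma adjusted p = 0.00267), from 11.92 to 13.17 in WT down to 9.54 to 11.14 in KO, with no overlap. Asgr1 fell by 0.84 ± 0.23 (limma adjusted p = 0.0434), but only 4 KO livers lay below every WT liver and the call was lost in 9 of 12 fits without 1 mouse (up to 0.104). With the poly-A spike signal in the model Asgr1 was at -0.065 and Asgr2 at -1.94, no gene of the list was called by limma, and the list's median turned from -0.18 to 0.06. Stat5b and Stat5a, which act below the thrombopoietin and growth hormone receptors, fell by 0.57 ± 0.06 (limma adjusted p = 0.000939) and 0.24 ± 0.05 (limma adjusted p = 0.00944). Stat5b was at -0.09 in M and -1.06 in F livers, a difference that did not pass (limma adjusted p = 0.0746). In the other direction, Jak2 (0.32) and Stat3 (0.76), named after their values were seen, did not pass (limma adjusted p = 0.0895 and 0.0995). Jak2 was called higher in F livers (0.60, limma adjusted p = 0.043). Stat3 was called higher over both letters without KO F mouse 40 (0.99, limma adjusted p = 0.00838). Among 18 measured coagulation factors and regulators 1 rose and 2 fell. The rise was that of Pros1, protein S (1.54 ± 0.39, limma adjusted p = 0.0323). The falls were those of Proc, protein C (-0.87 ± 0.17, limma adjusted p = 0.011), and F13b (-0.49 ± 0.13, limma adjusted p = 0.04). Which liver cells gave these signals was not tested. Another 4 of the 18 were at the highest value on every array and could not show a difference. When 1 mouse was left out, F13b kept its call in 1 of 12 fits and Pros1 in 4. The falls became 4 under quantile normalization and under equal negative control medians. The list median was -0.34 under quantile normalization. The medians of 0 as deposited and -0.14 under equal negative control medians are the values of the 4 genes at the highest value. That change is the shift of the arrays and shows no fall of the list.

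Markers of other cells moved in the same livers, and their counts stand beside the 5.28% called higher and 4.47% called lower over all features. Of 12 Kupffer cell and macrophage genes 10 rose and 1 fell, with a median of 2.48, led in size by the scavenger receptor Marco (6.27 ± 0.73 SE, limma adjusted p = 0.00122). All 12 were above the 95th percentile of the negative controls on at least 1 array. Their summed signal, on the log2 scale, was 11.56 to 13.17 in WT and 13.89 to 18.38 in KO. It ranked the 6 KO livers in the order 40, 18, 13, 69, 19, 39, which was also their order for Clec1b. The other 2 called genes had other orders, 40, 18, 19, 13, 69, 39 for Ppbp and 13, 69, 18, 19, 40, 39 for Itgb3. The complement gene C1qc (2.49 ± 0.34) and the growth factor receptor Csf1r (3.07 ± 0.48) rose as well (limma adjusted p = 0.00216 and 0.00385). The hemoglobin scavenger receptor Cd163 fell by 1.75 ± 0.19 on the log2 scale (limma adjusted p = 0.000942). Clec4f, named after its values were seen, was not called (0.21 ± 0.41, limma adjusted p = 0.819). All 10 macrophage rises stood under each of the 3 other scalings. Without 1 mouse, Vsig4, also named after its values were seen, was called in 6 of 12 fits and the other rises in all 12. Of 11 neutrophil genes, 6 of which stayed within the negative control range on all arrays, 8 rose. They were led by the calprotectin subunits S100a8 (8.30 ± 1.02, limma adjusted p = 0.00155) and S100a9 (7.73 ± 1.03, limma adjusted p = 0.00206). The summed neutrophil signal was 7.76 to 8.69 in WT and 9.76 to 16.95 in KO, where F mouse 69 was highest and M mouse 39 lowest. Under each of the 3 other scalings 7 of the 11 rose, and without KO F mouse 40, 6 did. Mpo, Ltf and Camp are named after their values were seen. Mpo passed under none of those scalings. Without 1 mouse Mpo was called in 1 of 12 fits, Ltf in 2, Camp in 9 and the other neutrophil rises in all 12. Of 10 sinusoidal endothelial genes 3 rose, among them Pecam1 (1.14 ± 0.17, limma adjusted p = 0.00267), and 2 fell, Kdr (-0.64 ± 0.10, limma adjusted p = 0.00343) and Clec4g (-1.46 ± 0.27, limma adjusted p = 0.0077), and their summed signal overlapped between genotypes (11.82 to 12.53 and 11.50 to 13.35). The 3 rises stood under each of the other scalings, but the falls became 4 after quantile normalization, 3 with median centring and 5 with equal negative control medians. Oit3, named after its values were seen, was among them each time (-0.60 as deposited, limma adjusted p = 0.058).

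Of 10 erythroid precursor genes, 7 of them within the negative control range on all arrays, none was called by limma (4 had an unadjusted p under 0.05), although Slc4a1, the red cell anion exchanger, was higher in all 6 KO livers than in any WT liver (0.85 ± 0.31 SE, limma adjusted p = 0.126). Car1, the red cell carbonic anhydrase, was at -1.15 ± 0.34 (limma adjusted p = 0.0652), and it was called lower under each of the 3 other scalings (limma adjusted p = 0.0276 to 0.0472). Their summed signal was 8.37 to 10.44 in WT and 9.17 to 11.20 in KO. Of 8 stem and progenitor genes 2 rose, Cd48, also a leukocyte gene, and Procr, and 1, Hlf, fell. On all arrays 6 of the 8 stayed within the negative control range. Only Hlf and Cd48 passed its 95th percentile, on 8 and 3 arrays. Which cells gave these signals was not tested. Over all features 5.28% were called higher and 4.47% lower. Procr passed under none of the 3 other scalings (limma adjusted p = 0.0822 to 0.167), each of which left 1 rise, and without 1 mouse Cd48 was called in 3 of 12 fits, Hlf in 4 and Procr in 5. The summed signal of the 8 genes was 7.88 to 8.34 in WT and 8.03 to 9.79 in KO. The part of any of these cells in the rise of Clec1b, Itgb3 and Ppbp was not tested.

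**Figure D4:**
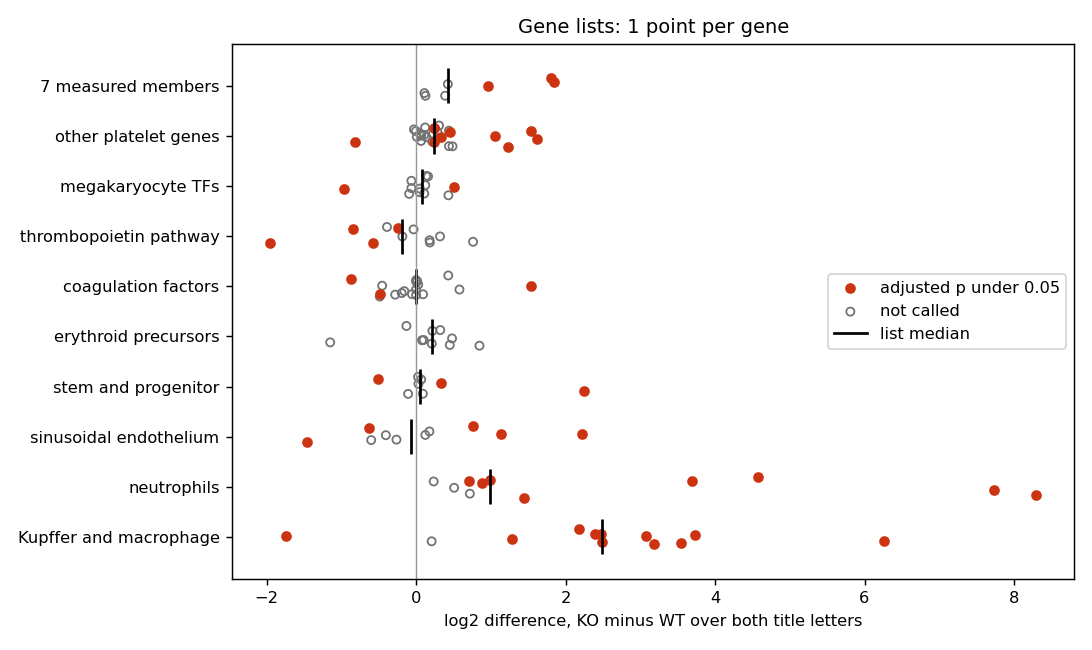
Log2 difference of KO minus WT over both title letters (horizontal axis) for each gene of 10 lists (rows), filled where the adjusted p was under 0.05, with the list median as a bar. Of the macrophage genes 10 of 12 lie to the right as called, against 8 of 26 other platelet genes and 0 of 10 erythroid genes. Over all features 5.28% were called higher.

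Profiles most like those of the 3 called genes were sought among 16598 protein-coding genes by the root mean square (RMS) difference of log2 values over the 12 arrays, each gene centred on its own mean. This is a description, since genes that rise by a like amount in KO are near by construction. Nearest to Clec1b, whose own RMS spread was 1.12, were Slc11a1, a metal transporter of macrophage phagosomes (0.18), Itgal, the alpha L chain of the leukocyte integrin LFA-1 (0.20), and Aoah, a lipase that inactivates endotoxin (0.21). Nearest to Itgb3 (spread 0.54) were the interleukin 1 decoy receptor Il1r2 (0.10), the splicing protein Son (0.15) and the endothelial protein Heg1 (0.15). For Ppbp (spread 1.22) the nearest profiles were farther away: Rassf4 (0.43), the proliferation marker Mki67 (0.48) and the histone gene H2ac10 (0.51). Of these neighbours, Il1r2 passed the 95th percentile of the negative controls on 0 arrays, Rassf4 and Mki67 on 2 and Aoah on 3. Son and H2ac10 passed it on all 12. None of the 9 came from the platelet lists. In those lists 4 of the 7 and 22 of the 26 genes stayed within the negative control range on all arrays. Few of them could thus lie near a profile with so large a rise, and a platelet source was not tested.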

How the data were processed

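Liver RNA of 12 mice was measured, each on 1 array. The deposited values are log2 signals per feature, which the authors made in Transcriptome Analysis Console (submitters' processing notes). The sources used here give neither the genome build nor the steps of background correction, normalization and summarisation. Every array shares a highest value of 19.93, and a gene there has only a lower bound. The number of arrays limits the precision. The 6732 control features of the 72688 were kept out of the tests, and symbols came from platform annotation, updated through the RefSeq table where a feature had 1 gene ID (30604 features had 1 symbol, 2146 several, 33206 none). Each gene is its feature of highest mean signal.

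limma 3.58.1 in R 4.3.3 (lmFit, eBayes) was fitted to 4 group means over 65956 features, with 8 residual degrees of freedom, for KO minus WT over both letters, within each, and their difference, with Benjamini-Hochberg adjustment and a threshold of 0.05; it was tested on simulated data. Array measures were compared by exact permutation. Alternatives were 3 scalings, a filter on low signal, the prior, array weights, the feature per gene, a poly-A covariate, genotype alone, a 1.5-fold minimum and each mouse left out. The genes, the 10 lists and the alternatives were chosen with earlier results of these data known. Named were all genes of the set, Slc29a3, the 3 nearest profiles of each called gene and, from the lists, genes among the 4 smallest p-values. In several lists, among them the neutrophil, endothelial, erythroid and coagulation lists, not all of those 4 are named. Other genes named from the lists are marked.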

Additional observations from a re-analysis of the deposited data

Results flagged for a closer look

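In the 6 KO livers Clec1b reached 11.83 in F mouse 40, far from the next value of 10.02, by Dixon's test over the 6 livers of the genotype. It was the 1 such value among 14 tests, 7 genes in 2 genotypes, and chance gives about 1 in 20. The same liver was the highest KO liver for Ppbp, Pf4, Gp9, Itga2b and Treml1 and had the highest summed macrophage signal, 18.38 on the log2 scale.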

How the results depend on the processing

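Over both letters 3 of the 7 genes were called, and 2 to 4 when 1 mouse was left out; 1 was called among features above the negative controls on at least 3 arrays, because only Clec1b passed that filter, and 0 with the poly-A covariate. In F the count of 2 became 1 under the filter and 0 with the poly-A covariate, and ran from 0 to 2 without 1 mouse. In M it was 0, and 0 to 1 without 1 mouse, since Itgb3 passed without KO M mouse 39 (1.05, limma adjusted p = 0.0319) and Clec1b without KO F mouse 40 (1.33, limma adjusted p = 0.0459), in separate fits. For the difference between letters it was 0 in each fit without 1 mouse. Over all features, 6432 were called over both letters, 3661 with a 1.5-fold minimum, 3 with the poly-A covariate and 4553 to 6599 without 1 mouse. In M 716 were called, against 1089 after quantile normalization, 1649 under the filter, 1087 with array weights, 0 with the poly-A covariate, 1275 with equal negative control medians and 161 to 938 without 1 mouse. In F 4083 were called, against 74 with the poly-A covariate, 6481 with equal negative control medians and 1581 to 4563 without 1 mouse. For the difference between letters 1 was called, against 0 after quantile normalization, with the trended robust prior or with array weights, 4 with median centring, 21 under the filter, 5 with the poly-A covariate, 19 with equal negative control medians and 0 to 55 without 1 mouse. Scaling also changed the split of calls over both letters: 3482 higher and 2950 lower as deposited, 2555 and 4091 after quantile normalization, 2538 and 4001 with median centring and 2195 and 7133 with equal negative control medians. The cause of these changes was not tested. Each gene of the set has 1 feature, so averaging features changed nothing. No paired analysis was possible because no replicate number occurs in more than 1 group.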
